A study of Mus musculus with 36 samples.

Results

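CD8 T cells that live between the epithelial cells of the small intestine, called intraepithelial lymphocytes or IELs, were compared after culture with interleukin 15 (IL-15) and without stimulation, in mice lacking the long noncoding RNA lnc13. The comparison took 6 of the 36 samples of the series, chosen by their labels: 3 knockout libraries marked IL15 and 3 knockout libraries marked unstim. Every cell in it carried the lnc13 deletion, so the groups did not differ in lnc13 genotype. They differed in the IL-15 label, and also in sex-linked and receptor transcripts, as given below. The IL-15 cells were CD8a+ IELs kept for 48 h with the cytokine, per the series' design text. The labels do not say whether the unstimulated cells were cultured without IL-15 or taken fresh, and give no age, sex or strain. Replicates are labelled as biological, and nothing ties a replicate number to 1 mouse in both groups. The other samples cover gluten-challenged tissue and lymphocyte preparations, a chromatin pull-down of lnc13 and 6 wild-type libraries of the same culture design, which are used below only where genotypes are compared.

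IL-15 is shown to T cells on the surface of epithelial and myeloid cells and signals through the IL-2 receptor beta chain and the common gamma chain, the kinases JAK1 and JAK3, and the transcription factor STAT5. In the gut epithelium it is known to keep IELs alive, to make them divide and to load them with cytotoxic granules, and it is abundant in the coeliac intestine. IELs come in different kinds: some carry an alpha-beta T cell receptor with the CD8 alpha-beta coreceptor, others carry CD8 as an alpha-alpha pair, many of them with a gamma-delta receptor.

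The libraries held 14724754 to 17611887 reads assigned to genes with IL-15 and 16428511 to 21412990 without. Levels are given as CPM, the usual read counts scaled to a common library size, after normalisation of the 6 libraries together, and differences as log2(CPM + 1), IL-15 minus unstimulated, with the standard error of the fit and n = 3 libraries a group. A gene is called where limma's test across all genes gave an adjusted p under 0.05. For a gene with no read in 1 group the size of the difference depends on the added 1 and is no bound. The 2 groups' libraries were unlike in how well they repeated. IL-15 libraries correlated with each other at r = 0.98 to 0.99 over the 12827 genes tested, and unstimulated libraries at r = 0.52 to 0.56. Of 8816 genes that reached 10 CPM in an unstimulated library, 4996 (56.7%) were under 1 CPM in another, against 0 of 8389 genes with IL-15. Reads from mitochondrially encoded genes made up 0.769% to 1.16% of the IL-15 libraries and 2.80% to 7.75% of the unstimulated ones. Genes with any read numbered 23541 to 24674 with IL-15 and 30098 to 36589 without. A low value in an unstimulated library thus often stood beside a high one in its replicate, and the values of all 3 are printed for each gene below.

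**Figure D1:**
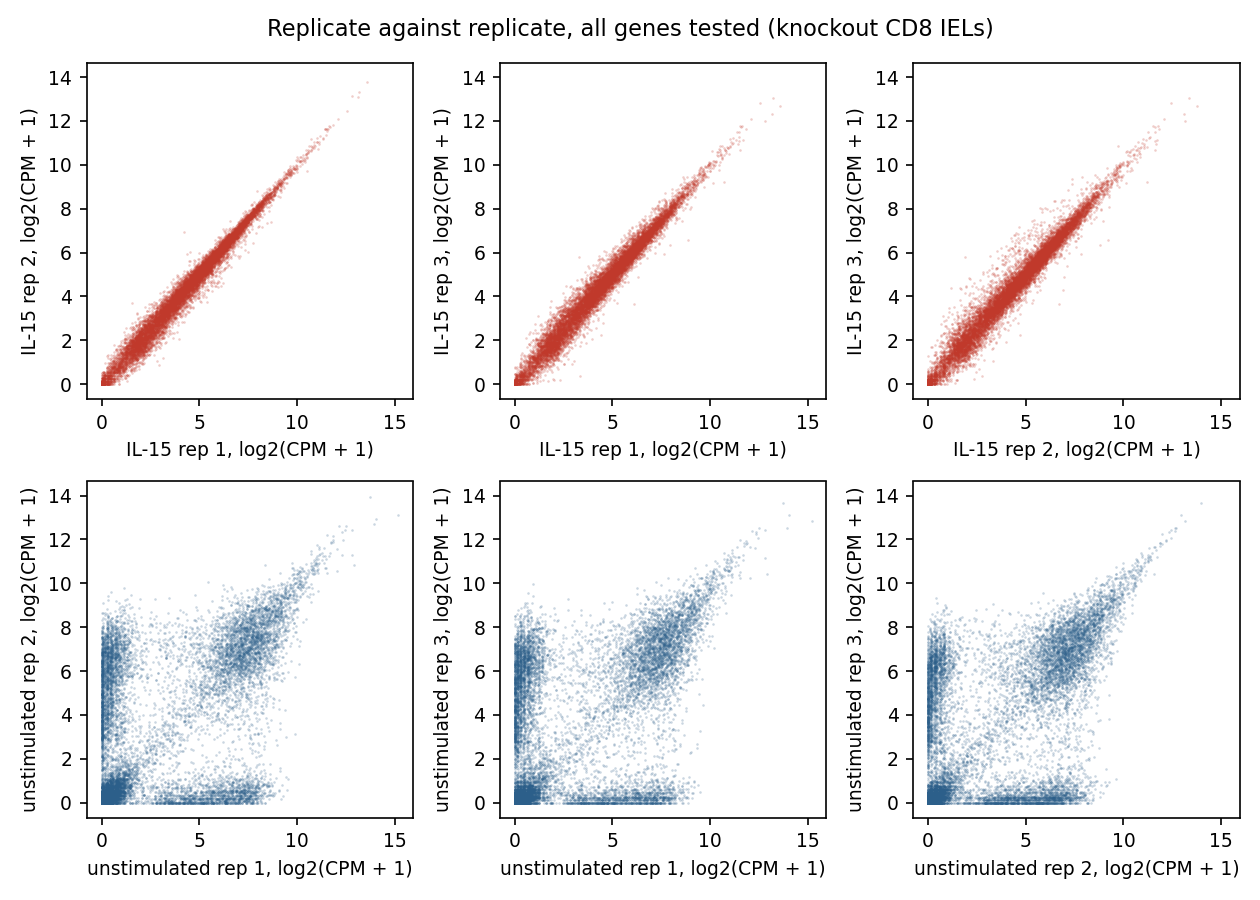
Each panel plots 1 library against another of its group, with 1 point per gene tested and log2(CPM + 1) on both axes; IL-15 in the upper row, unstimulated in the lower. The IL-15 points lie along the diagonal (r = 0.98 to 0.99), and the unstimulated points also run along both axes, where genes well above 10 CPM in 1 library were under 1 CPM in the other.

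Of the 12827 genes, 3578 (27.9%) were called: 2981 higher with IL-15 (23.2%) and 597 lower (4.65%). Counts of list members below stand against these 2 shares of all genes tested. The median difference over all genes was 0.78, which is above 0 under this scaling, and list medians below are set beside that value. With DESeq2 size factors the median was 0.21 and 66.7% of the calls were higher, with library size alone it was 1.21 and 92.7%, and with the deposited values as they stood it was 1.79 and 88.4%, against 83.3% here. Of the 2981 genes called higher, 2470 were under 1 CPM in all 3 unstimulated libraries, 358 reached it in 1 library, 94 in 2 and 59 in 3. All 597 genes called lower reached 1 CPM in all 3. Of the 6301 genes with a mean of at least 20 CPM with IL-15, called or not, 431 (6.84%) were under 1 CPM in every unstimulated library. Most of the 2470 thus had a mean under 20 CPM with IL-15. edgeR's quasi-likelihood test on the same reads made 2784 calls, and 2282 genes were called higher and 456 lower by both tests. Restricted to the 4346 genes with a mean of at least 50 CPM over the 6 libraries, 46 were called higher and 268 lower. Leaving out 1 library moved the number of lower calls over 1.5 times whichever library it was: 321, 346 and 344 without IL-15 replicates 1, 2 and 3, and 1283, 1162 and 1223 without unstimulated replicates 1, 2 and 3. The total was 5490 without unstimulated replicate 3 and 5282 without replicate 2. limma's p-values set each difference against a spread between these libraries that is pooled over both groups, although the groups repeated unequally.

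The coreceptor and the antigen receptor changed with the groups. Cd8b1 encodes the CD8 beta chain, which marks alpha-beta CD8 T cells. It stood at 82.3, 133 and 131 CPM with IL-15 and at 1869, 1513 and 1737 CPM without, a difference of -3.90 ± 0.23 (adjusted p = 0.000709). Its partner Cd8a stood at 1899, 2100.2 and 1756 CPM and 1397, 1429 and 1313 CPM. All IL-15 values of Cd8a lay above all unstimulated ones, the difference was 0.47 ± 0.07 (adjusted p = 0.00528), and with DESeq2 size factors it was -0.27. The call on Cd8a was lost without IL-15 replicate 1, 2 or 3 (adjusted p = 0.342, 0.436 and 0.179). Trdc, the constant region of the delta receptor chain, was at 1567, 1849 and 1323 CPM with IL-15 and 0.132, 53.6 and 47.7 CPM without, a difference of 6.76 ± 1.59 (adjusted p = 0.0267). edgeR's test did not call Trdc, and limma's call was lost without any 1 of the IL-15 replicates (adjusted p = 0.111 to 0.121), although the groups did not overlap.

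Variable segments of the receptor genes moved with them, and their summed reads were not tested. The 6 delta segments summed to 106, 95.0 and 64.7 CPM with IL-15 and to 0, 3.86 and 0 CPM without. The 7 gamma segments summed to 1058, 1141 and 859 CPM against 356, 245 and 224 CPM. Sums over the 35 beta segments went the other way, with 331, 360 and 311 CPM against 828, 1085 and 881 CPM. None of these 3 sums overlapped between the groups, whereas the 128 alpha segments gave 160, 187 and 157 CPM against 121, 275 and 193 CPM, which did. Part of the delta variable genes lie within the alpha locus, and the segments resemble each other, so assignment of reads between them is uncertain.

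**Figure D2:**
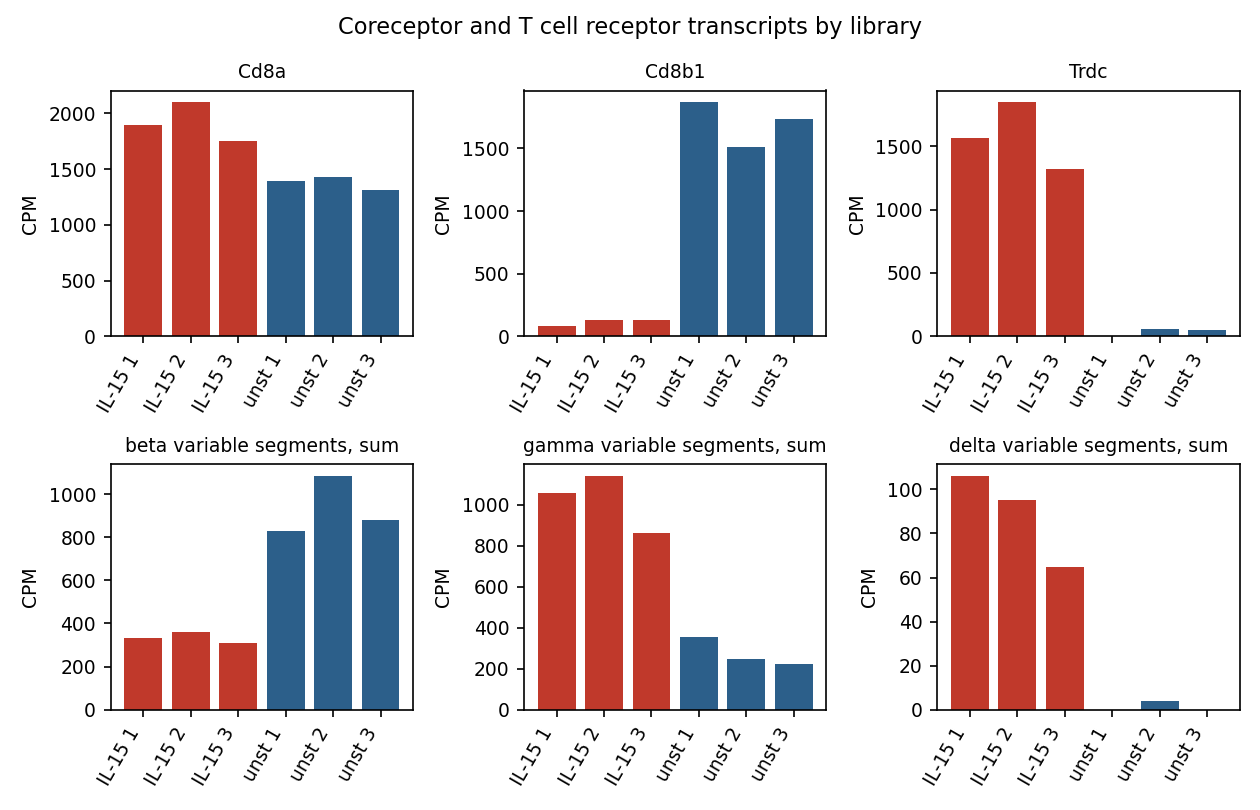
Bars give CPM in each of the 6 libraries (IL-15 1 to 3, unst 1 to 3) for Cd8a, Cd8b1, Trdc and the summed beta, gamma and delta variable segments. Cd8b1 and the beta segments are low in the IL-15 libraries, and Trdc, the gamma and the delta segments are low in the unstimulated ones.

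Of the 17 genes listed as markers of CD8 alpha-alpha and gamma-delta IELs, 15 were found and 12 tested. Of the 12, 8 were called higher and 0 lower, beside 23.2% of all genes tested called higher. The median difference of the 15 was 1.34 beside 0.78 for all genes. By both tests 5 were called higher, and limma called 3 higher with DESeq2 size factors and 12 with library size alone. Fcer1g, a signalling adaptor of Fc and natural killer receptors, stood at 1396, 1376 and 863 CPM against 75.9, 32.7 and 107 CPM, with a difference of 4.18 ± 0.49 (adjusted p = 0.00179). Tcrg-C1 and Tcrg-C2 encode constant regions of the gamma chain. Tcrg-C1 was at 1028, 1164 and 851 CPM against 194, 51.3 and 11.9 CPM, and Tcrg-C2 at 1539, 1516 and 1263 CPM against 877, 711 and 712 CPM. limma called both, with differences of 4.31 ± 0.99 (adjusted p = 0.0243) and 0.91 ± 0.12 (adjusted p = 0.00282); edgeR did not call Tcrg-C1, and limma's call on it was lost without IL-15 replicate 1, 2 or 3 or unstimulated replicate 2 (adjusted p = 0.0811, 0.0843, 0.073 and 0.0516). Cd4 did not exceed 1.81 CPM in any library. In bulk RNA a smaller share of cells of 1 kind and less of the transcript per cell cannot be told apart, and this holds for every gene below.

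Sex-linked genes also separated the libraries. Xist, transcribed from the inactive X chromosome of females, was at 99.7, 74.9 and 108 CPM with IL-15 and 3.57, 0.282 and 0.139 CPM without. Ddx3y, on the Y chromosome, was at 0, 0 and 0 CPM with IL-15 and 0.0661, 221 and 144 CPM without. The IL-15 libraries thus had Xist reads and no Ddx3y reads, unstimulated replicates 2 and 3 had Ddx3y reads, and unstimulated replicate 1 had little of either. The part of receptor composition, mitochondrial share and sex in the differences below was not tested, and all 3 moved with the groups.

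The beta and gamma chains of the IL-15 receptor were not called in either direction. Il2rb, the beta chain that IL-15 shares with IL-2, was at 323, 417 and 429 CPM with IL-15 and 378, 321 and 150.3 CPM without (difference 0.55 ± 0.39, adjusted p = 0.424). For Il2rg, the common gamma chain, the values were 2159.6, 1711 and 2099.8 CPM and 2905, 1682 and 1473 CPM (difference 0.04 ± 0.27, adjusted p = 0.944). Both overlapped between the groups. Il2ra encodes the IL-2 receptor alpha chain, which completes the high-affinity IL-2 receptor. It was at 31.4, 27.5 and 73.3 CPM with IL-15 and 0.397, 0.113 and 0.139 CPM without, and rose by 5.08 ± 0.49 (adjusted p = 0.000965). Il15ra, the chain that presents IL-15, was at 36.2, 35.9 and 24.2 CPM against 0, 106 and 72.1 CPM. One unstimulated library had no Il15ra reads and the other two lay above all IL-15 values; the gene was not called (difference 0.72 ± 1.91, adjusted p = 0.834), and without unstimulated replicate 1 the difference was -1.44.

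Jak1, the kinase bound to the beta chain, stood at 804, 857 and 742 CPM with IL-15 and 1859, 1556 and 1942 CPM without, and fell (-1.15 ± 0.10, adjusted p = 0.000824). Jak3, bound to the gamma chain, was at 12.8, 20.2 and 22.2 CPM against 179, 0.169 and 0.278 CPM and was not called (adjusted p = 0.669). Stat5a and Stat5b were not called either (adjusted p = 0.465 and 0.57). Of the 19 genes listed for the receptor and its kinases, 2 were called higher, Il2ra and the exchange factor Sos1, and 1 lower, Jak1. Their median difference was 0.51 beside 0.78 for all genes, and it was -0.18 with DESeq2 size factors.

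Genes known as STAT5 targets and feedback regulators included 7 called higher and 0 lower of 16, beside 23.2% and 4.65% of all genes tested. Their median difference was 3.41 beside 0.78. By both tests 4 were called higher. Lta, the cytokine lymphotoxin alpha, was at 46.99, 38.04 and 59.4 CPM with IL-15 and had 0 reads in all 3 unstimulated libraries (difference 5.60 ± 0.35, adjusted p = 0.000709). Pim2, a survival kinase, was at 489, 426 and 546 CPM against 0.0661, 0.282 and 57.5 CPM. Unstimulated replicate 3 was far above the other two; Pim2 was called by limma (6.82 ± 1.67, adjusted p = 0.0306) and not by edgeR, and limma's call was lost without any 1 of the IL-15 replicates or without unstimulated replicate 1 or 2 (adjusted p = 0.0623 to 0.138). Bcl2, which blocks the mitochondrial death pathway, was at 751, 835 and 706 CPM against 120.04, 13.8 and 138 CPM, and rose by 3.60 ± 0.92 (adjusted p = 0.035, called by edgeR too). Its groups did not overlap, and its call was lost without any 1 of the IL-15 replicates (adjusted p = 0.134 to 0.144).

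Myc, a driver of cell growth, was at 215, 222 and 286 CPM with IL-15 and 0.198, 1.13 and 12.1 CPM without (difference 6.22 ± 1.00, adjusted p = 0.00597); edgeR's test did not call it. Cish and Socs2, inhibitors that STAT5 induces, were not called. Cish stood at 75.4, 84.3 and 73.8 CPM against 0.132, 0 and 52.9 CPM (difference 4.32 ± 1.67, adjusted p = 0.135), and Socs2 at 59.8, 54.9 and 48.7 CPM against 0.132, 9.49 and 12.1 CPM (difference 3.36 ± 1.06, adjusted p = 0.0733). In both, 1 unstimulated library at least was far from the others. Pim1 and Mcl1 gave differences of -0.04 and -0.34 and were not called (adjusted p = 0.92 and 0.705).

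Granzymes A, B and C and perforin rose with IL-15, and granzyme K fell. Gzma and Gzmb encode granzymes A and B, the serine proteases that perforin delivers into target cells. Gzmb was at 7136, 9031 and 4059 CPM with IL-15 and 525, 295 and 108 CPM without, and rose by 4.64 ± 0.64 (adjusted p = 0.00315). Gzma was at 12319.6, 13959 and 6648 CPM against 1703, 1602 and 1557 CPM, a rise of 2.69 ± 0.28 (adjusted p = 0.00123). For both genes IL-15 replicate 3 was the lowest of its group and still above all unstimulated libraries. Prf1, which encodes perforin, was at 84.96, 94.6 and 45.2 CPM with IL-15 and 0.265, 0 and 0 CPM without, a difference of 6.07 ± 0.45 (adjusted p = 0.000709). Gzmc, a granzyme with close neighbours in the same cluster, was at 9.02, 13.2 and 12.97 CPM against 0 reads in all 3 unstimulated libraries (difference 3.65 ± 0.27, adjusted p = 0.000709). Reads of Gzmc and its near copies may be exchanged in counting; Gzmd, Gzme, Gzmf and Gzmg did not exceed 0.331 CPM in any library.

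Gzmk, a granzyme of memory CD8 T cells, went down in the same libraries, with 68.6, 105 and 11.4 CPM against 796, 975 and 695 CPM (difference -4.18 ± 0.84, adjusted p = 0.0147). Of the 23 genes for granzymes, perforin and granule proteins, 18 passed the filter on low values, 6 were called higher, 1 lower and 11 not called. The 6 of 18 tested stand beside 23.2% of all genes tested called higher, and by both tests the counts were 5 and 1. Nkg7, a granule membrane protein, rose by 1.66 ± 0.33 (adjusted p = 0.0132), a call lost without IL-15 replicate 1 or 2 (adjusted p = 0.0762 and 0.0753). Fasl, the death ligand, was at 517, 610.4 and 265 CPM against 0.595, 175 and 763 CPM and was not called (adjusted p = 0.486): its unstimulated values ran from near 0 to above every IL-15 value. With DESeq2 size factors the list had 4 members higher and 2 lower. Tnf was at 11.6, 9.28 and 16.1 CPM with IL-15 and 0 in all unstimulated libraries (difference 3.70 ± 0.29, adjusted p = 0.000714), and Ifng at 6.19, 10.1 and 6.37 CPM against 33.5, 41.2 and 0 CPM, not called (adjusted p = 0.875). Ltb, the partner of lymphotoxin alpha, stood at 716, 569 and 922 CPM against 2205, 3210.03 and 2902 CPM and fell (-1.92 ± 0.22, adjusted p = 0.00164).

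**Figure D3:**
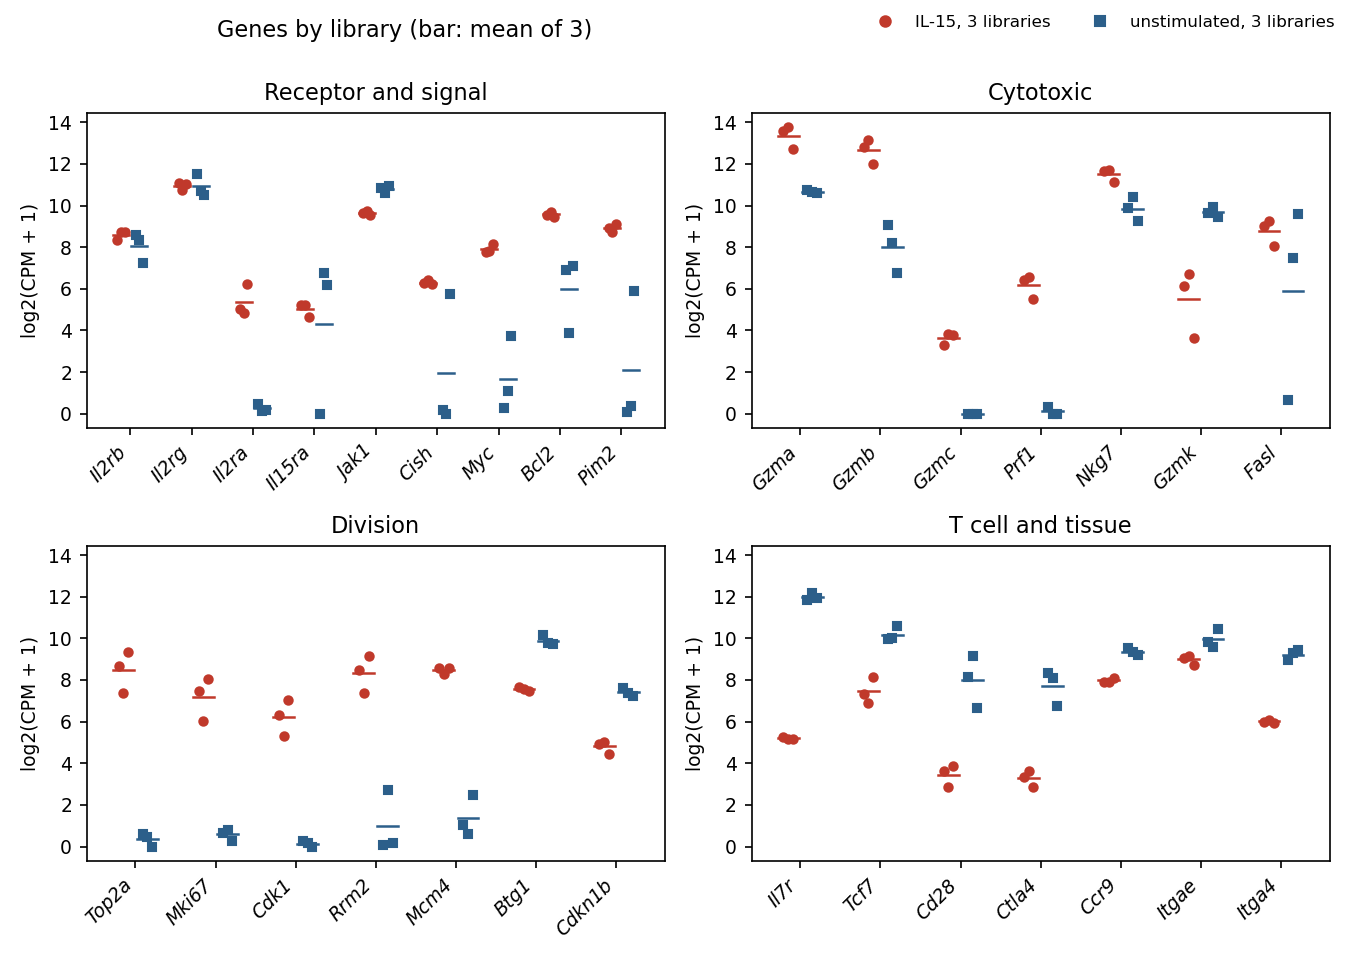
Points give log2(CPM + 1) in each library (circles IL-15, squares unstimulated, 3 each) and short lines the mean of 3. Gzmb, Prf1, Top2a, Mki67 and Cdk1 are apart upward and Il7r, Tcf7, Cd28 and Btg1 downward, while Il15ra and Fasl have unstimulated libraries on both sides of the IL-15 ones.

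Mitosis genes had the largest share of members called among the lists. Of 26 mitosis genes, 24 were called higher and 0 lower, beside 23.2% of all genes called higher, and the median difference was 5.54 beside 0.78. By both tests 20 were called higher; limma called 24 higher with DESeq2 size factors and 25 with library size alone. Top2a, the topoisomerase that untangles chromosomes, was at 409, 165 and 647 CPM with IL-15 and 0.529, 0.395 and 0 CPM without (difference 8.10 ± 0.68, adjusted p = 0.000749). Mki67, the Ki-67 proliferation antigen, was at 179, 63.3 and 264 CPM against 0.595, 0.734 and 0.208 CPM (difference 6.60 ± 0.68, adjusted p = 0.00113). Cdk1, the kinase that starts mitosis, was at 77.8, 38.1 and 130.4 CPM against 0.198, 0.113 and 0 CPM (difference 6.07 ± 0.56, adjusted p = 0.000868). In these 3 genes IL-15 replicate 3 was the highest and replicate 2 the lowest, and every unstimulated library was under 1 CPM. The summed level of the 26 genes was 2373, 1031 and 4188 CPM with IL-15 and 63.8, 28.4 and 54.4 CPM without. Of the 25 mitosis genes with a mean of at least 20 CPM with IL-15, 18 (72%) were under 1 CPM in all 3 unstimulated libraries, against 6.84% of all genes at that level. Ccna2 (difference 4.45, adjusted p = 0.0586) and Cenpa (difference 2.51, adjusted p = 0.361) were the 2 members not called.

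DNA replication genes were less uniform, with 13 of 27 called higher, 12 of them by both tests, 0 lower and a median difference of 4.23. Of all genes tested, 23.2% were called higher. Rrm2, the small subunit of ribonucleotide reductase, was at 359, 162 and 559 CPM against 0.0661, 5.59 and 0.139 CPM (difference 7.32 ± 0.97, adjusted p = 0.00272). Cdc6, which loads the replicative helicase, was at 105, 67.1 and 132 CPM against 0.397, 0 and 0 CPM (difference 6.47 ± 0.46, adjusted p = 0.000709). Mcm4, a helicase subunit, was at 379, 314 and 386 CPM against 1.06, 0.508 and 4.58 CPM (difference 7.12 ± 0.67, adjusted p = 0.00091). Another helicase subunit and the sliding clamp were not called. Mcm7 was at 199, 165 and 280.3 CPM against 227, 295 and 142 CPM (difference -0.01 ± 0.38), and Pcna at 128, 99.97 and 163 CPM against 43.98, 107 and 136 CPM (difference 0.56 ± 0.55), with adjusted p = 0.984 and 0.554. Both overlapped between the groups.

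Inhibitors of the cycle moved both ways. Btg1, an antiproliferative factor of resting lymphocytes, was at 199, 188 and 174 CPM with IL-15 and 1148, 867 and 843 CPM without and fell (-2.33 ± 0.17, adjusted p = 0.000709). Cdkn1b, the cyclin-dependent kinase inhibitor p27, was at 29.1, 31.8 and 21.1 CPM against 197, 163 and 150.1 CPM and fell (-2.60 ± 0.42, adjusted p = 0.00605). Btg2 and Mdm2 were also called lower, and Cdkn1a and Cdkn2b higher. Of 20 listed genes 18 were tested, and 4 were called lower and 2 higher, beside 4.65% and 23.2% of all genes tested. Mdm2 was no longer called without IL-15 replicate 1, 2 or 3 or unstimulated replicate 2 (adjusted p = 0.0573, 0.0539, 0.0536 and 0.0712).

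Promoters from the mitosis, replication and STAT5 target lists are shown because cell cycle genes are known for short shared elements: the CCAAT box bound by NF-Y, the TTTGAA element of mitotic genes and E2F sites in replication genes, while STAT5 binds TTCNNNGAA. The bases are the 250 before the first listed start in RefSeq's GRCm38.p6 annotation, 5′ to 3′ on the gene's strand, with matches on either strand in capitals. Top2a (chr11:99024190-99024439, minus strand) and Cdk1 (chr10:69352913-69353162, minus strand) have CCAAT capitalised, Cdc6 (chr11:98907901-98908150, plus strand) the E2F letters TTTCCCGC or TTTGGCGC, and Lta (chr17:35205352-35205601, minus strand) the STAT5 letters.
Top2a: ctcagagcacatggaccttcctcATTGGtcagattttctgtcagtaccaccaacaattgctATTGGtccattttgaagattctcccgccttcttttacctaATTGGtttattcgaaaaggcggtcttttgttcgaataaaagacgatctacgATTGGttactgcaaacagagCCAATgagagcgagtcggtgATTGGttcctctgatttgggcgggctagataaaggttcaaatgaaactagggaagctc
Cdk1: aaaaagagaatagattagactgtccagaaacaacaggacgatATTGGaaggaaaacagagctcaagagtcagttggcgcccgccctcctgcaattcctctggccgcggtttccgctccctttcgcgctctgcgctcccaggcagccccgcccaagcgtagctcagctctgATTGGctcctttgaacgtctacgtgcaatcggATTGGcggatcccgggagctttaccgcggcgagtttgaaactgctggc
Cdc6: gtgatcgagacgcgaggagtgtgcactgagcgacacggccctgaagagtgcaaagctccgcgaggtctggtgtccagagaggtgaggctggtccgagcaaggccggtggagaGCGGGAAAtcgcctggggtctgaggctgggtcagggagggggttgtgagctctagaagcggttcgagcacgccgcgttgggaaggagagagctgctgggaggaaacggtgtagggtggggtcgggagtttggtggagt
Lta: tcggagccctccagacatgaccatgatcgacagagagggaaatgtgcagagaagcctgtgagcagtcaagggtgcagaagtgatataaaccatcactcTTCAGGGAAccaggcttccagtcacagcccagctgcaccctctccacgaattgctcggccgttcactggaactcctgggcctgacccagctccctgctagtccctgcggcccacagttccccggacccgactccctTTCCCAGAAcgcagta

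Top2a had 6 CCAAT matches, starting 227, 189, 149, 98, 78 and 58 bases before the start, and Cdk1 had 3, at 208, 80 and 48 bases. CCAAT occurred in 18 of the 21 mitosis promoters with a RefSeq entry (85.7%) and in 9314 of all 27025 promoters (34.5%). These counts run over every listed gene with an entry, called or not. TTTGAA occurred in 7 of the 21 (33.3%) against 16.3% of all. The E2F letters were in 5 of 22 replication promoters (22.7%) against 1.35% of all, Cdc6 among them with 1 match at 138 bases. Of those 5, Cdc6 and Pola1 were called higher, and Mcm5, Mcm6 and Mcm7 were not called. TTCNNNGAA was in 2 of 12 promoters of the STAT5 list (16.7%) against 7.18% of all. Lta had 2 matches, at 152 and 16 bases before the listed start, and the other was Socs3. The Lta gene as annotated reaches to chr17:35205578. Both Lta matches therefore lie within its annotated span, downstream of its outermost start. These matches describe letters in a window and not binding; the STAT5 letters read alike on both strands, and matches of different motifs may share bases.

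Some genes for growth and metabolism were called higher, while the summed levels of the lists in this paragraph overlapped between the groups and were not tested. Amino acid and one-carbon genes summed to 1354 to 1669 CPM with IL-15 and 1256 to 2599 CPM without. Sterol synthesis genes summed to 1031 to 1257 CPM and 736 to 1346 CPM. Of the genes called higher in these lists, 6 of 7 and 5 of 6 were under 1 CPM in all 3 unstimulated libraries. Among all genes called higher it was 2470 of 2981. Of 17 genes for amino acid transport and one-carbon metabolism, 16 were tested. Of the 16, 7 were called higher, all 7 by both tests, and 0 lower, beside 23.2% of all genes tested called higher. Psat1, an enzyme of serine synthesis, was at 96.2, 79.7 and 123 CPM with IL-15 and 0.132, 0 and 0 CPM without (difference 6.57 ± 0.40, adjusted p = 0.000709). Mthfd2, a mitochondrial folate enzyme, was at 89.5, 87.3 and 119.6 CPM against 0.331, 0.169 and 0.139 CPM (difference 6.35 ± 0.40, adjusted p = 0.000709). Shmt1, Shmt2, Mthfd1l and the transporters Slc7a1 and Slc7a5 were the other members called. Sterol synthesis had 6 of 22 tested genes called higher, 5 by both tests, and 0 lower, a share near the 23.2% of all genes tested. Among the 6 was Idi1, an isomerase of the isoprenoid pathway, at 18.3, 17.4 and 24.4 CPM against 0.0661, 0.113 and 0 CPM (difference 4.30 ± 0.29, adjusted p = 0.000709). Ribosome biogenesis had 3 of 25 called higher and glycolysis 4 of 20, below the 23.2% of all genes, and by both tests 2 each. With DESeq2 size factors 4 ribosome biogenesis genes and 3 glycolysis genes were called lower.

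Of 13 mitochondrially encoded genes, 11 were tested, and 7 were called lower and 0 higher, beside 4.65% and 23.2% of all genes tested. The list's counts were the same under each of the 3 other scalings and by both tests. mt-Nd1, a subunit of complex I, was at 698, 776 and 693 CPM with IL-15 and 5077, 2539 and 3106 CPM without (difference -2.24 ± 0.26, adjusted p = 0.00163). Unstimulated replicate 1 was the highest for it, and it had the largest mitochondrial share of reads. The nuclear genes of oxidative phosphorylation differed from this: 0 of 25 were called higher and 1 lower, Tfam, the factor that packages and transcribes mitochondrial DNA, at 45.04, 46.4 and 53.8 CPM against 312, 147 and 196 CPM (difference -2.09 ± 0.42, adjusted p = 0.0147). With DESeq2 size factors 7 were lower.

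The largest fall among named genes was in Il7r, the receptor chain for the survival cytokine IL-7. It stood at 37.6, 35.04 and 35.2 CPM with IL-15 and 3624, 4561 and 3949 CPM without, with narrow spread in both groups (difference -6.77 ± 0.14, adjusted p = 0.00029). Tcf7, a transcription factor of resting and memory T cells, was at 161, 118 and 278 CPM against 1001, 1029 and 1519 CPM (difference -2.73 ± 0.36, adjusted p = 0.0027). Cd28, a costimulatory receptor, was at 11.2, 6.17 and 13.6 CPM against 280.2, 574 and 101 CPM (difference -4.55 ± 0.79, adjusted p = 0.00808). Ctla4, an inhibitory receptor for the same ligands, was at 9.11, 11.4 and 6.32 CPM against 325, 276 and 105 CPM (difference -4.45 ± 0.64, adjusted p = 0.00375). Ramp3, Hs3st3b1, Lgals2, Tff3, Fabp1, Glod5, Gzmk, Lypd6b, Ptafr, Cd8b1, Lysmd2 and Hist3h2ba made up the 15 largest falls with Il7r, Cd28 and Ctla4, and had differences from -5.55 to -3.74. Hs3st3b1 lost its call without IL-15 replicate 1, 2 or 3 (adjusted p = 0.0794, 0.0702 and 0.0746), Hist3h2ba without IL-15 replicate 1 or 3 (adjusted p = 0.0527 for both) and Glod5 without IL-15 replicate 3 (adjusted p = 0.052).

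The T cell receptor complex and its signalling genes were called lower for 12 of 28 members, beside 4.65% of all genes, and higher for 5; by both tests it was 12 and 3. Their median difference was -0.62, below 0 under all 4 scalings, where the counts of lower calls ran from 7 with library size alone to 16 with DESeq2 size factors. Lat, the adaptor that links the receptor to its pathways, was at 342, 374 and 331 CPM with IL-15 and 1839.98, 1664 and 2108 CPM without (difference -2.41 ± 0.11, adjusted p = 0.000709). Cd3d, a chain of the receptor complex, was at 816, 823 and 786 CPM against 2038, 1916 and 1548 CPM (difference -1.17 ± 0.11, adjusted p = 0.00088). Cd3e, another chain, was not called, at 795, 771 and 730.2 CPM against 734, 772 and 1199 CPM (adjusted p = 0.562). Among the members called higher were Cd8a, the calcium-responsive factors Nfatc1 and Nfatc2, and Malt1, which links the receptor to NF-kB. Nfatc2 was at 20.1, 19.7 and 19.02 CPM against 1.19, 1.19 and 0.625 CPM (difference 3.38 ± 0.32, adjusted p = 0.000945).

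Of 25 genes of homing and tissue retention, 21 were tested, and 4 were called lower and 0 higher, beside 4.65% and 23.2% of all genes tested. The median over the tested members was -0.38, and above 0 with library size alone (0.12) or the deposited values (0.17). Itga4, the integrin chain that pairs for gut homing, was at 62.6, 67.5 and 60.9 CPM against 492, 617 and 693 CPM (difference -3.20 ± 0.24, adjusted p = 0.000709). Ccr9, the receptor for the small intestinal chemokine CCL25, was at 239, 242 and 272 CPM against 738, 646 and 595 CPM (difference -1.39 ± 0.14, adjusted p = 0.00109). Cxcr3, a receptor for interferon-induced chemokines, was at 237, 256 and 264 CPM against 1018, 1354 and 852 CPM and fell by 2.06 (adjusted p = 0.000868). Itgae, the CD103 integrin chain that binds E-cadherin, stood at 535, 569 and 423 CPM against 915, 773 and 1381 CPM. It was called lower (-0.97 ± 0.25, adjusted p = 0.0349), and the call was lost without IL-15 replicate 1, 2 or 3 or unstimulated replicate 1 (adjusted p = 0.112, 0.0955, 0.141 and 0.0576). Cd69, another retention gene, was not called (difference 1.07, adjusted p = 0.312). Ccl5, a chemokine that CD8 T cells store, was at 9075, 8673 and 5174 CPM against 13729, 15792 and 12859.5 CPM and was called lower (-0.93 ± 0.23, adjusted p = 0.0348), a call lost without unstimulated replicate 1, 2 or 3 (adjusted p = 0.0699, 0.0799 and 0.0543).

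Of 28 receptors and signalling adaptors known from natural killer cells, 25 were tested. Of the 25, 12 were called higher, 10 of them by both tests, and 1 lower, beside 23.2% and 4.65% of all genes tested. The median difference of the list was 1.25 beside 0.78. Fcer1g and Cd160 were among those called higher here and in the list of alpha-alpha and gamma-delta IELs, so these lists share members. Klra5 belongs to the Ly49 family, which binds MHC class I. It was at 119, 127 and 111 CPM with IL-15 and 0.331, 0.282 and 0.0694 CPM without (difference 6.62 ± 0.40, adjusted p = 0.000709). Klra1, Klra3, Klra6 and Klra7 were also called higher, but Ly49 genes are near copies of each other and their reads may be exchanged. Tyrobp, the adaptor DAP12 through which activating Ly49 receptors signal, was at 504, 522 and 475 CPM against 48.8, 0.113 and 0.139 CPM (difference 6.97 ± 1.62, adjusted p = 0.0251). edgeR's test did not call it, and limma's call was lost without any 1 of the IL-15 replicates or without unstimulated replicate 2 or 3 (adjusted p = 0.0516 to 0.0929). Klrb1f was the member called lower, at 4.39, 3.28 and 10.7 CPM against 110.3, 89.4 and 22.004 CPM (difference -3.25 ± 0.84, adjusted p = 0.0375). edgeR did not call it, and limma called it in 1 of the 6 fits that left out a library (adjusted p of up to 0.124). Klrk1, which encodes NKG2D, the receptor for stress ligands on epithelium, was at 20.03, 10.6 and 16.7 CPM against 0.661, 112 and 0.694 CPM, and 1 unstimulated library was above every IL-15 one. Klrk1, Klrd1 and Klrc1 were not called (adjusted p = 0.683, 0.284 and 0.723).

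Tnfrsf9, the costimulatory receptor 4-1BB of activated T cells, had the largest rise named after that of Top2a. It was at 216, 228 and 255 CPM with IL-15 and 0.132, 0.282 and 0.416 CPM without (difference 7.52 ± 0.44, adjusted p = 0.000709). S100a1, a calcium-binding protein, was at 196, 182 and 158 CPM against 0 reads in all 3 unstimulated libraries (difference 7.48 ± 0.41, adjusted p = 0.000709). Sept11, Fignl1, Myo1e, Fcgr3, Tacc3, Lilr4b, Bhlhe40 and Tpx2 were other genes among the 15 largest rises, with differences from 6.79 to 7.23. All of these 8 kept their call without any 1 library.

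Of 28 transcription factors of T cells, 25 were tested, and 8 were called higher and 3 lower, beside 23.2% and 4.65% of all genes tested. By both tests it was 4 and 3. Nfil3, a factor that IL-15 induces in natural killer precursors, was at 37.8, 36.6 and 38.6 CPM against 0 reads in all unstimulated libraries (difference 5.27 ± 0.30, adjusted p = 0.000709). Rora, a nuclear receptor, was at 58.1, 53.2 and 45.4 CPM against 345, 464 and 443 CPM and fell by 2.97 (adjusted p = 0.000978). Tbx21, which encodes T-bet, was at 60.003, 86.8 and 98.4 CPM against 0.397, 0.621 and 70.1 CPM and was not called (adjusted p = 0.172). Eomes did not exceed 0.930 CPM in any library. In human, the lnc13 gene lies at the IL18RAP locus. Il18rap, which encodes the signalling partner in the IL-18 receptor, was at 24.2, 14.2 and 30.4 CPM against 0.595, 148 and 161 CPM, and Il18r1, the binding chain, at 5.41, 3.28 and 6.09 CPM against 0.794, 5.59 and 57.2 CPM. Neither was called (adjusted p = 0.873 and 0.791): unstimulated replicates lay on both sides of the IL-15 values.

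Of 27 type I interferon genes, 20 were tested. Of the 20, 7 were called higher, all 7 by both tests, and 0 lower, beside 23.2% of all genes tested called higher. Under 1 CPM in all 3 unstimulated libraries were 6 of the 7. The list summed to 765 to 1036 CPM with IL-15 and 340 to 1131 CPM without, which overlapped and was not tested. Rtp4, an interferon-induced gene, was at 62.2, 50.2 and 63.3 CPM against 0, 0.0565 and 0 CPM (difference 5.86 ± 0.34, adjusted p = 0.000709). NF-kB subunits and feedback genes had 5 of 21 called higher, 3 by both tests, and 1 lower, beside 23.2% and 4.65% of all genes tested. The 1 lower was Tnfaip3, the inhibitor A20, at 38.8, 54.2 and 28.4 CPM against 138, 180.1 and 537 CPM (difference -2.57 ± 0.64, adjusted p = 0.0334). Its call was lost without IL-15 replicate 1, 2 or 3 (adjusted p = 0.12, 0.0874 and 0.131). MHC class I presentation had 1 of 19 called higher and 1 lower, and with DESeq2 size factors 1 higher and 5 lower. The unfolded protein and ATF4 response had 3 of 20 called higher and 0 lower, 1 higher by both tests, and with DESeq2 size factors 0 higher and 1 lower. The 3 were the chaperones Hsp90b1, Hyou1 and Sdf2l1, and each lost its call without any 1 of the IL-15 replicates (adjusted p = 0.144 to 0.27, 0.0619 to 0.0858 and 0.265 to 0.407). B2m, the light chain of MHC class I, was at 4343, 4316 and 4319 CPM against 5602, 5498 and 4308 CPM and was not called (difference -0.24 ± 0.10, adjusted p = 0.187); with library size alone its difference was 0.31.

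**Figure D4:**
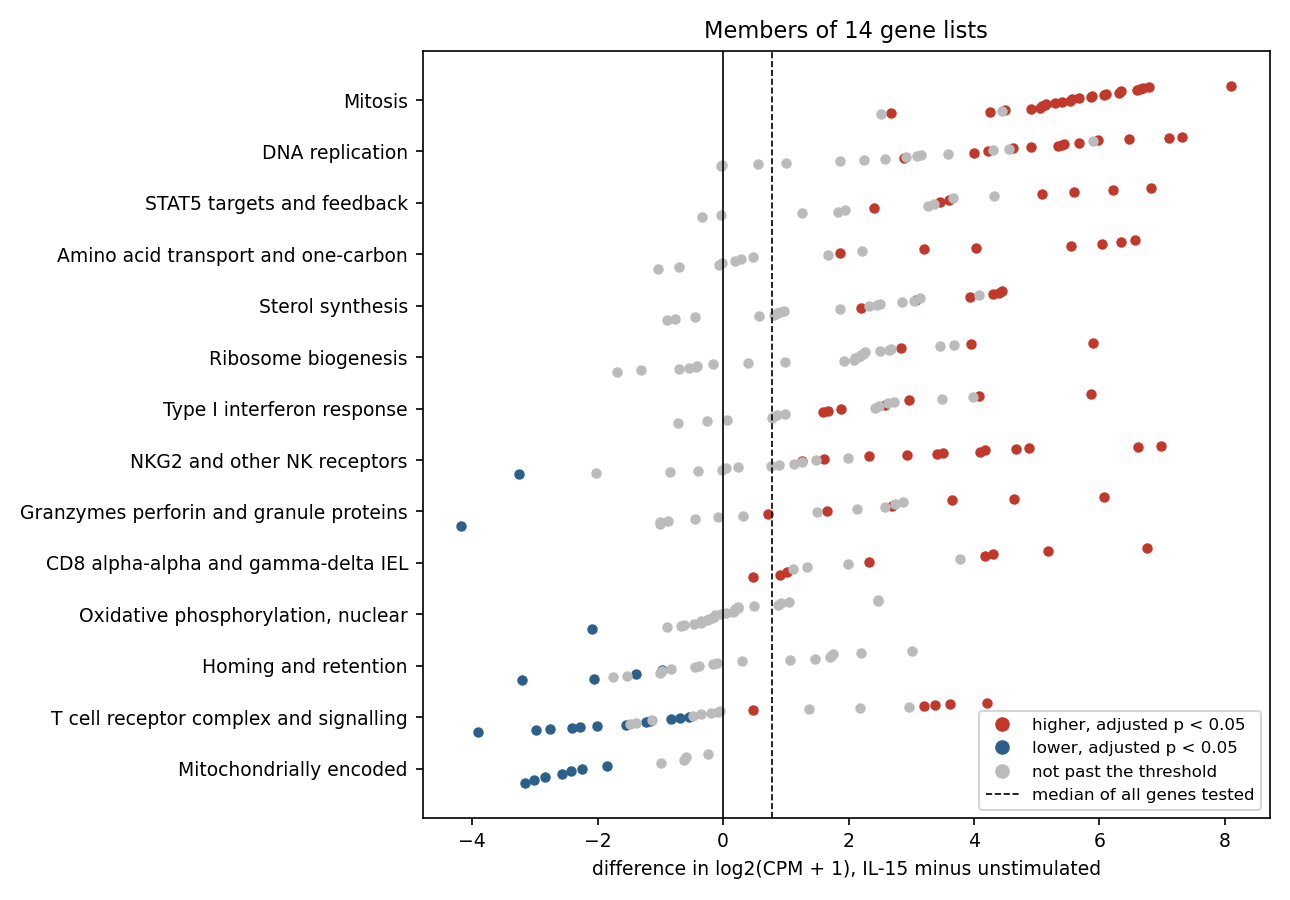
Each point is 1 tested member of a list, placed by its difference in log2(CPM + 1), IL-15 minus unstimulated; red was called higher, blue lower, grey not called, and the dashed line marks the median of all genes, 0.78. All mitosis genes lie to the right of the dashed line and all mitochondrially encoded genes left of 0; homing, oxidative phosphorylation and T cell receptor genes lie on both sides of 0.

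Summed markers of enterocytes and of Paneth and goblet cells were higher in every unstimulated library than in any IL-15 one, and were not tested as sums. The 20 enterocyte markers summed to 28.5 to 48.0 CPM with IL-15 and 382 to 852 CPM without, and the 17 Paneth and goblet cell markers to 1.21 to 13.6 CPM against 112 to 458 CPM. Fabp1, a fatty acid carrier of enterocytes, was at 4.78, 3.91 and 0.884 CPM against 124, 73.6 and 114 CPM (difference -4.76 ± 0.65, adjusted p = 0.00297). Tff3, a goblet cell peptide, was at 1.07, 0.906 and 0.186 CPM against 109, 48.4 and 19.6 CPM (difference -4.85 ± 0.72, adjusted p = 0.00429). Of 20 enterocyte genes 14 were tested, and 2 were called lower and 0 higher, beside 4.65% and 23.2% of all genes tested. Epcam, an adhesion molecule of epithelium, went the other way, at 129, 115 and 90.1 CPM against 0.132, 0.169 and 0 CPM (difference 6.66 ± 0.40, adjusted p = 0.000709), while the 15 pan-epithelial markers together summed to 163 to 242 CPM against 497 to 756 CPM. The B and plasma cell markers summed to 376 to 560 CPM with IL-15 and 187 to 617 CPM without. Macrophage and dendritic cell markers summed to 254 to 427 CPM against 2.15 to 196 CPM. Of these 20 genes 6 were tested, and 3 were called higher and 0 lower, beside 23.2% and 4.65% of all genes tested. The 3 called were under 1 CPM in all 3 unstimulated libraries. Mast cell and eosinophil markers summed to 245 to 417 CPM against 2.85 to 230 CPM, with 0 of 13 called, and exocrine pancreas markers to 30.2 to 53.5 CPM against 0.625 to 4.58 CPM, with 1 of 12 called higher. Of each of these last 2 lists, 1 member passed the filter on low values, Kit and Cela1. These 2 sums thus rest mainly on 1 gene each. Kit is also among the listed markers of natural killer and innate lymphoid cells. The macrophage, mast cell and pancreas sums were higher in every IL-15 library than in any unstimulated one. The part of these cells in any difference above was not tested.

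Wild-type IELs of the same design put the knockout values beside cells that kept lnc13; CPM in this paragraph and the next come from normalising 12 libraries together. Of the 2981 genes called higher, 1363 (45.7%) had all wild-type IL-15 libraries above all wild-type unstimulated ones, against 24.4% of all genes tested, and of the 597 called lower 188 (31.5%) had them below, against 7.45%. Among mitosis genes called higher it was 22 of 24 (91.7%), among replication genes 11 of 13 and among granule genes 5 of 6. It was 4 of 12 among NK receptors and adaptors and 2 of 7 among type I interferon genes. Gzmb was at 9251, 8673 and 4986 CPM with IL-15 and 142, 347 and 352 CPM without in wild type, and Top2a at 369.8, 366 and 96.01 CPM and 0.241, 0.791 and 0.233 CPM. Il7r was at 104, 43.4 and 582 CPM against 3694, 2596 and 2847 CPM. The difference between the genotypes' changes was not called for Gzmb (adjusted p = 0.997), Top2a (adjusted p = 0.828) or Il7r (adjusted p = 0.799). In wild type, Xist was at 0.0593, 46.0 and 59.5 CPM with IL-15 and 14.8, 0.148 and 0.349 CPM without. Ddx3y was at 144, 0.0572 and 0 CPM with IL-15 and 0, 178 and 75.7 CPM without. Sex-linked reads thus varied within both wild-type groups, and their part in the genotype comparison was not tested. Cd8b1 was at 334, 86.1 and 2339 CPM against 1772, 1245 and 1233 CPM in wild type, and Trdc at 2085, 2239.7 and 102 CPM against 20.7, 62.8 and 19.7 CPM. Wild-type IL-15 replicate 3 thus had more Cd8b1 and less Trdc than any knockout IL-15 library. Without this replicate, left out after its values were seen, 55.6% of the genes called higher were apart in the same direction, against 30.2% of all. Of the genes called lower it was 43.9% against 9.73%. No other wild-type library was left out of this count. A group of 2 libraries is apart from 3 more easily than a group of 3, and the shares of all genes rose too. Without that library, the mitosis, replication and granule genes called higher gave 23 of 24, 12 of 13 and 6 of 6. The NK receptors and adaptors gave 10 of 12 and the type I interferon genes 3 of 7.

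The test of the difference between the knockout and the wild-type change called 62 of 13487 genes (0.46%), 44 more positive in the knockout (0.326%) and 18 more negative (0.133%), with 730 at an unadjusted p under 0.05. In all 62 the unstimulated libraries of the genotypes did not overlap, while the IL-15 libraries did in 34 of the 44 and 16 of the 18. Of the 44, 40 were under 1 CPM in all 3 knockout unstimulated libraries. Of the 18, 13 were under 1 CPM in all 3 wild-type unstimulated libraries. The unstimulated values enter the test that picked these 62 genes, so these counts follow in part from that choice. Shares over all 13487 genes were not computed for them. Mcm4, named above, was the replication gene among them. It was at 388, 416 and 340.1 CPM with IL-15 and 356, 179 and 319.99 CPM without in wild type, and 395, 336 and 396 CPM and 0.962, 0.482 and 4.33 CPM in the knockout (difference of differences 6.76, adjusted p = 0.0137). Myc gave a like set of values, with 336, 158 and 106 CPM in wild-type unstimulated libraries, but was not called (adjusted p = 0.0635). limma's count was 0 when any 1 of the knockout IL-15 replicates was left out (380 to 416 genes at an unadjusted p under 0.05), and 0 without wild-type IL-15 replicate 1 or 2; 30 were called without wild-type IL-15 replicate 3. Without knockout unstimulated replicate 1, 2 or 3 the count was 185, 225 and 230, and without wild-type unstimulated replicate 1, 2 or 3 it was 269, 296 and 223. edgeR's test called 14 genes and DESeq2's 836.

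**Figure D5:**
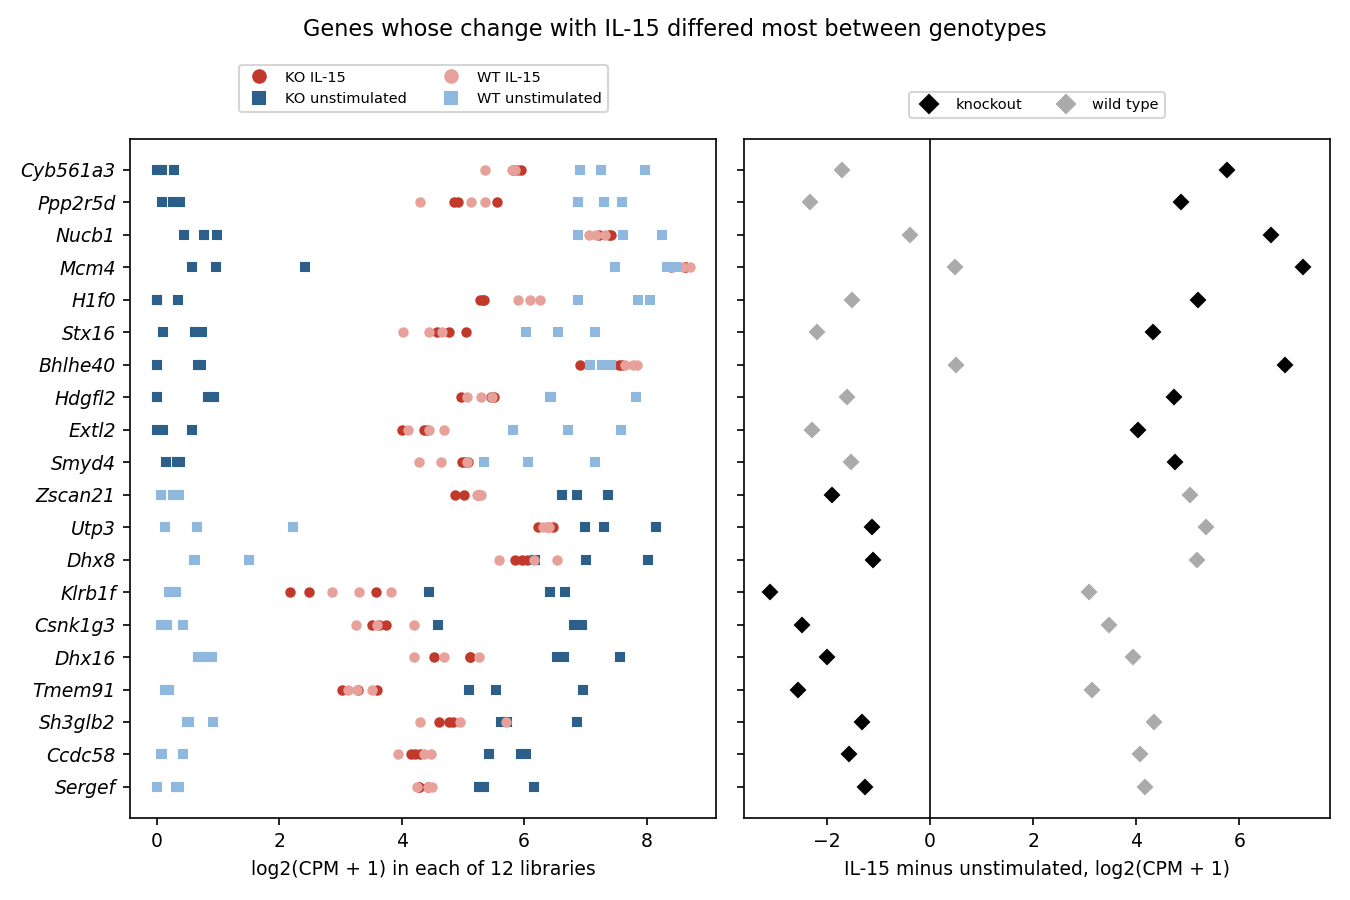
The left panel gives log2(CPM + 1) in each of 12 libraries for the 10 genes of each direction with the largest difference between the genotypes' changes, and the right panel the change in each genotype. For the first 10 genes the knockout unstimulated libraries lie lowest, for the last 10 the wild-type ones, and the IL-15 libraries of both genotypes lie between 2 and 9.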

How the data were processed

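Polyadenylated RNA of CD8 IELs had been sequenced from a low-input NEBNext library kit, per the labels' protocols. The authors deposited 1 table for the IL-15 libraries and 1 for the unstimulated libraries, and each holds a normalised signal per Ensembl gene, read counts divided by a size factor per library within that table. The submitters' processing notes name STAR, TopHat, featureCounts, DESeq, DESeq2 and the builds mm10 and mm39 without roles or versions, and whether counting used strand is not given in the sources used here. Each library's values were divided by their smallest step, which gave whole reads for 100% of values within 0.01 of a whole number, and the tables were joined on 78275 Ensembl IDs, of which 51486 carried a symbol. The recovered reads of the 6 libraries were normalised together by TMM (edgeR 4.0.16, R 4.3.3), which matters here because the deposited tables had been scaled apart. Genes with a mean of at least 1 CPM over the 6 libraries were tested on log2(CPM + 1) with limma 3.58.1 with a mean trend, 3 libraries against 3, with Benjamini-Hochberg adjustment over all of them. An exact permutation test of single genes cannot go below p = 0.1 with 3 against 3 and was not used. The difference between genotypes was an interaction term over 12 libraries.

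On simulated reads in which the unstimulated group kept its own, larger spread, limma's test made false calls and edgeR's quasi-likelihood test did not for the knockout comparison, so counts called by both tests are given beside limma's for most lists. DESeq2 1.42.0, other scalings, pseudocounts, filters, library weights, a replicate block and leaving out each library were alternatives, and the filter at a mean of 50 CPM was chosen after seeing the data. Named genes were up to 15 rises and 15 falls, the largest among called genes with a mean of at least 10 CPM in the higher group and no overlap, up to 6 members of each list by p, a list of genes of interest, and up to 10 genes in each direction for the difference between genotypes. Other list members are named where a count needs them and were chosen after their values were seen. The members, the 45 gene lists and this rule were chosen with earlier results of these data known. Sequences and motif positions come from RefSeq tables of GRCm38.p6. Tables and figures used Python 3.11.15, pandas 2.3.3, NumPy 2.4.6 and Matplotlib 3.10.9. Results for a few genes of these lists are not reported here.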

Additional observations from a re-analysis of the deposited data

Results flagged for a closer look

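The change with IL-15 differed between the knockout and the wild type, by the interaction term of limma with an adjusted p under 0.05, in the 20 genes given here, 10 in each direction. Values are differences of differences in log2(CPM + 1), knockout minus wild type. Cyb561a3 gave 7.47, from a change of 5.76 in the knockout and -1.71 in the wild type. Its levels were 0.0601, 0.214 and 0 CPM in knockout unstimulated libraries, 151, 251 and 119 CPM in wild-type ones, and 40.2 to 60.5 CPM in the 6 IL-15 libraries. The others of this direction were Ppp2r5d with 7.20, Nucb1 with 7.01, Mcm4 with 6.76, H1f0 with 6.71, Stx16 with 6.52, Bhlhe40 with 6.39, Hdgfl2 with 6.34, Extl2 with 6.33 and Smyd4 with 6.27.

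Zscan21 gave -6.94, from -1.90 in the knockout and 5.04 in the wild type. Its levels were 164, 115 and 97.4 CPM in knockout unstimulated libraries, 0.0483, 0.198 and 0.291 CPM in wild-type ones, and 28.2 to 38.4 CPM with IL-15. The same direction held for Utp3 with -6.49, Dhx8 with -6.30, Klrb1f with -6.18, Csnk1g3 with -5.95, Dhx16 with -5.94, Tmem91 with -5.70, Sh3glb2 with -5.67, Ccdc58 with -5.65 and Sergef with -5.42. All 20 lost their call when any 1 of the knockout IL-15 libraries was left out, since limma then called 0 genes. The part of uneven detection among unstimulated libraries in these differences was not tested: 56.7% of genes that reached 10 CPM in a knockout unstimulated library, and 57.1% in a wild-type one, were under 1 CPM in another library of the group.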

How the results depend on the processing

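Of the 3578 calls (2981 higher, 597 lower), the total and the higher count stayed within 1.5 times under the other scalings, both pseudocounts, no filter, edgeR and 12 libraries in 1 fit, and the lower count did not under several. Lower calls were 1357 with DESeq2 size factors, 256 with library size alone, 384 with the deposited values and 297 of 2405 with 12 libraries in 1 fit. A filter at a mean of 5 CPM gave 1789 calls with 1302 higher, and 50 CPM, chosen after seeing the data, 314 with 46 higher and 268 lower. DESeq2's Wald test gave 5772 with 2983 lower, and library quality weights, whose estimate gave a convergence warning, 531 with 478 higher and 53 lower. Leaving out 1 library gave 2593 to 5490 calls, 2272 to 4267 higher and 321 to 1283 lower. Same-numbered libraries did not deviate together (correlations of -0.001, -0.008 and -0.014). This cannot decide whether the numbers pair them, because the unstimulated libraries repeated poorly (r = 0.52 to 0.56). With the replicate block there were 2777 calls, 2546 higher and 231 lower.

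The 62 calls between genotypes (44 and 18) became 32 (23 and 9) with a pseudocount of 5, 2 (1 and 1) with no filter, 14 (11 and 3) by edgeR and 836 (561 and 275) by DESeq2. A filter at 5 CPM left 29 of the 44 and at 50 CPM 2 genes (2 and 0). limma made 0 calls in either direction with weights or the replicate block, with 756 and 535 genes at an unadjusted p under 0.05. Leaving out 1 library gave 0 to 296 calls, 0 to 257 and 0 to 138 by direction; at 0, 380 to 485 genes had an unadjusted p under 0.05. The cause of these changes was not tested.

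Reversed in sign were Cd8a (-0.27 with DESeq2 size factors, -0.39 by DESeq2), Hsp90b1 (-0.040, -0.15), Hspa8 (-0.57, -0.67), B2m (0.31, library size alone), Il2rg (-0.97, DESeq2), Pecam1 (-3.53, DESeq2), and without unstimulated replicate 1 Il15ra (-1.44, up to 1.96 without replicate 2) and Ighd (1.36, down to -1.46 without replicate 2). Of 174 named genes called, 150 kept their call by edgeR, 148 with the block and 56 with weights.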

Other observations

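Hypoxia targets, a list the text above leaves out, had 12 of 14 members tested. Beside 23.2% of all genes tested called higher, 0 members were called lower and 4 higher, all 4 by both tests. They were Car9 and Car12, carbonic anhydrases, P4ha2, a collagen prolyl hydroxylase, and Mxi1, a MYC antagonist. Immediate early genes had 4 of 18 tested members called higher, Egr2, Zfp36, Fosl2 and Dusp5, and 1 lower, Btg2. By both tests it was 1 and 1, and with DESeq2 size factors 4 and 4. Among checkpoint receptors 3 of 14 tested were called higher, Lilrb4a, Entpd1 and Btla, and Ctla4 lower. By both tests it was 1 and 1. Interferon gamma GTPases and regulators had 4 of 19 higher and 0 lower, 3 and 0 by both tests and 3 and 3 with DESeq2 size factors. Ciita, the regulator of MHC class II, was among the 4 with Gbp4, Gbp5 and Gbp10. Costimulatory receptors had 2 of 11 tested higher, Tnfrsf9 and Tnfrsf13b, and 2 lower, Cd28 and Cd226. The counts were also 2 and 2 by both tests. None of these lists after the hypoxia targets had a larger share called higher than the 23.2% of all genes tested. Called lower were 4.65% of all genes tested.

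Single members of other lists were called higher, among them the macrophage and dendritic cell markers H2-Aa, Itgax and Flt3, Igha, Foxp3 and Cela1, a pancreatic elastase.
Several of these calls were lost when 1 library was left out. Without IL-15 replicate 1, 2 or 3, adjusted p values by limma were 0.0716 to 0.0876 for Entpd1, 0.0837 to 0.0945 for Cd226, 0.167 to 0.199 for Gbp4 and 0.107 to 0.125 for Dusp5. Cd226 was also lost without unstimulated replicate 1 or 3 (adjusted p = 0.0594 and 0.0611), Gbp4 without unstimulated replicate 3 (0.0669) and Btla without unstimulated replicate 1 or 3 (0.0689 and 0.0662). Gbp10 was lost without IL-15 replicate 1 or unstimulated replicate 1 (0.0714 and 0.0529), and Foxp3 and Igha without IL-15 replicate 1 (0.0586 and 0.0577).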
